A study of Mus musculus with 12 samples.

Results

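The scavenger and apoptotic-cell uptake receptors described here are 10 genes chosen by symbol, *Msr1*, *Marco*, *Cd36*, *Mrc1*, *Stab1*, *Scarb1*, *Olr1*, *Axl*, *Trem2* and *Lrp1*. All 10 were among the 12850 genes listed, and all 10 were among the 11885 that passed a filter on low values, set at 1 CPM (reads normalized to the size of the library) in 2 or more libraries. Polyadenylated RNA was sequenced from peritoneal exudate cells (PECs) of C57BL/6 mice, collected 3.5 days after 2 ml of 4% thioglycollate medium, an irritant that draws macrophages into the cavity, and then cultured. The mice were wild-type (WT) or carried the S513A knock-in allele of *Zc3h12a* on both chromosomes (S513A), made by CRISPR/Cas9 editing of fertilized eggs, in which a serine of the RNase Regnase-1 is replaced by alanine. Cells of each genotype received LPS, a component of the bacterial outer membrane, at 100 ng/ml for 0, 4 or 8 hr, with 2 libraries in each of the 6 groups. No group was kept without LPS for 4 or 8 hr, so in comparisons between times LPS cannot be told apart from time in culture. The age and sex of the mice are not given in the sources used here. The labels do not say whether the libraries of a group came from separate mice, so p values measure the spread between these libraries, which may be technical. A point mutation leaves gene counts as they are, so the genotype labels could not be checked with them.

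Scavenger receptors are surface proteins that bind modified lipoproteins, bacteria and other polyanionic or lipid ligands, and macrophages are the cells best known for them. Apoptotic cells are recognised by a partly shared set of receptors, some of which see exposed phosphatidylserine directly and some through bridging proteins such as Gas6, Pros1 and Mfge8. Bound cargo is engulfed and its cholesterol is then stored, esterified or exported.

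The libraries held 9525979 to 12439960 reads on these 12850 genes. A floor of 3 reads was used, which is -2.04 to -1.30 in log2 CPM depending on the library. Every receptor stood far above this floor, from 203 reads for *Olr1* to 56011 reads for *Cd36* as the lowest and highest count of any receptor in any library. The 7 macrophage markers summed to between 16200 and 26400 CPM in the 12 libraries. Of these *Lyz2* had 104423 to 258386 reads per library, against at most 32016 for any of the others. Of the 9 neutrophil markers 3 were listed (*S100a8*, *Camp* and *Mmp8*), at 362 to 745 CPM in sum, while the B cell list summed to at most 25.9 CPM, the eosinophil list to at most 18.5 CPM, the endothelial list to at most 12.2 CPM, the dendritic cell list to at most 12.1 CPM, and the T cell, mast cell and mesothelial lists to at most 3.84 CPM each. No erythroid marker was listed. Of the neutrophil markers *Mmp8* had 3247 to 10407 reads per library, against at most 1037 for *S100a8*. The macrophage and neutrophil sums thus rest largely on single genes. In bulk RNA, fewer cells of a type and less RNA per cell cannot be told apart.

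At 0 hr the receptors spanned a wide range of levels per kilobase of exon. *Cd36*, a class B receptor for oxidised lipoproteins and long-chain fatty acids, was highest, at a log2 CPM per kb of 10.17 ± 0.07 (SD, n = 4 libraries of both genotypes). *Marco*, a class A receptor with a collagenous stalk, followed at 8.01 ± 0.30, then *Trem2*, a lipid and apoptotic-cell receptor of the immunoglobulin superfamily, at 7.41 ± 0.22, and *Lrp1*, a very large endocytic receptor, at 7.08 ± 0.40. The libraries of *Marco* and *Trem2* overlapped on this scale, as did those of *Trem2* and *Lrp1*. *Msr1*, the class A macrophage scavenger receptor, had a level per kb of 6.35 ± 0.09 and *Mrc1*, the mannose receptor, one of 5.05 ± 0.14, neither overlapping its neighbours. *Stab1*, the endocytic receptor stabilin-1, and *Scarb1*, the HDL receptor SR-BI, did not differ beyond their spread, at 3.75 ± 0.16 and 3.63 ± 0.15. The lowest were *Olr1*, the lectin-like receptor LOX-1, at 2.48 ± 0.21 and *Axl*, a TAM receptor tyrosine kinase that binds Gas6, at 2.34 ± 0.25, and these also overlapped. After 8 hr of LPS the order of levels per kb had changed below its first 2 places. *Msr1* stood in 3rd place at 6.94 ± 0.15, *Trem2* in 5th place at 6.08 ± 0.35, *Axl* in 6th place at 5.02 ± 0.21 and *Mrc1* in 10th place at 3.07 ± 0.10, and *Trem2* overlapped *Lrp1* in 4th place. Exon length was the union of annotated exons, which understates the level of a gene that uses few of them. The union for *Trem2*, 4946 bases, covers most of the gene from 48346401 to 48352276, so its place in this order may be too low.

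The 250 bases before a transcript start of RefSeq's promoter table are shown for *Olr1* and *Axl*, the receptors with the largest rises, for *Mrc1* and *Trem2*, those with the largest falls, and for *Marco*, the nearest to a difference between genotypes. The sequences are RefSeq's for GRCm38.p6, whose table held 8 of the 10 receptors (not *Msr1* and *Scarb1*), and are written 5′ to 3′ on the strand of the gene. The table gives 1 start for each gene. For *Olr1* and *Axl* that start lies inside the gene's outer bounds, so that 185 bases of the *Olr1* window and 191 of the *Axl* window fall within the gene as annotated, while the other 3 windows lie just outside it. Capitals mark matches on either strand to AP-1 (TGANTCA), ETS (GAGGAA), C/EBP (TTGCNNAA), kappaB or ISRE patterns, none of which overlap in these windows.
*Olr1* promoter, chr6:129507166-129507415, minus strand: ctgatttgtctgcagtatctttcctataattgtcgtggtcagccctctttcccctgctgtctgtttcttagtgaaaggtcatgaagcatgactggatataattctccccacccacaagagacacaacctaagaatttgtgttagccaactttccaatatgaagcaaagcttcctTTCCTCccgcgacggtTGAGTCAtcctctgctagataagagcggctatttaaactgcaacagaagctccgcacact
*Axl* promoter, chr7:25788734-25788983, minus strand: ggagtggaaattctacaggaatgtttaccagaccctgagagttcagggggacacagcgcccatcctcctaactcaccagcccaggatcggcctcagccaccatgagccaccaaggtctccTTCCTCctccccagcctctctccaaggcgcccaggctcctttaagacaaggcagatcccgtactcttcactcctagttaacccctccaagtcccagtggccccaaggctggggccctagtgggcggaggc
*Mrc1* promoter, chr2:14229164-14229413, plus strand: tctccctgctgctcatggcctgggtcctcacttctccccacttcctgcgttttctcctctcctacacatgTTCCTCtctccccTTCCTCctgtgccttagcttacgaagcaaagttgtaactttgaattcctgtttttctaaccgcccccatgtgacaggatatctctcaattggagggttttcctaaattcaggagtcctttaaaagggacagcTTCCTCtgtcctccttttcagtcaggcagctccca
*Trem2* promoter, chr17:48346151-48346400, plus strand: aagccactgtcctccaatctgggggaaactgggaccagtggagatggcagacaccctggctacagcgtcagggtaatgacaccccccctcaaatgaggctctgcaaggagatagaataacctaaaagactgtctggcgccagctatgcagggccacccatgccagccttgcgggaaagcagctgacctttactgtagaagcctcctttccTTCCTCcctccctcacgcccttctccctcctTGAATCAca
*Marco* promoter, chr1:120505025-120505274, minus strand: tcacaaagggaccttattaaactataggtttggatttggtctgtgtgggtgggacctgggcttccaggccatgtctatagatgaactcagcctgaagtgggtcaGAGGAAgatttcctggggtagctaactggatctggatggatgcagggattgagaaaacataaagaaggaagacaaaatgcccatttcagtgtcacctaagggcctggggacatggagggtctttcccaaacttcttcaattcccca
An AP-1 match lay in the windows of *Olr1*, as TGAGTCA starting 60 bases before the start, and of *Trem2*, as TGAATCA starting 9 bases before it, against 6.75% of all 32851 promoter windows of this length. ETS matches lay in 6 of the 8 windows, those of *Marco*, *Mrc1*, *Stab1*, *Olr1*, *Axl* and *Trem2*, with 3 in *Mrc1*, against 23.3% of all windows. None of the 8 windows held the kappaB, ISRE or C/EBP pattern, which were in 7.25%, 2.98% and 9.56% of all windows. These are matches of letters in a short window and say nothing on binding.

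All 10 receptors differed between 4 hr of LPS and 0 hr, in both directions. In the mean of both genotypes (4 libraries against 4), 4 receptors were higher at 4 hr than at 0 hr, *Msr1*, *Marco*, *Olr1* and *Axl*, where 29.1% of all genes tested were called higher. The other 6, *Cd36*, *Mrc1*, *Stab1*, *Scarb1*, *Trem2* and *Lrp1*, were lower, where 26.7% of all genes were called lower. The median log2 fold change of the 10 was -0.54 at 4 hr, against 0.02 over all genes tested. At 8 hr the same 4 receptors were higher than at 0 hr (24.5% of all genes higher) and 4 were lower, *Cd36*, *Mrc1*, *Trem2* and *Lrp1* (21.6% of all genes lower), with a median of -0.19 over the 10, against -0.00070 over all genes tested. The comparisons at 4 and 8 hr share their 0 hr libraries. Between 4 and 8 hr, *Scarb1* was higher (12.8% of all genes higher) and *Cd36*, *Mrc1*, *Olr1* and *Trem2* were lower (12.8% of all genes lower).

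Some markers of cell types were also called with LPS. Of all genes tested, 29.1% were called higher and 26.7% lower at 4 hr, and 24.5% and 21.6% at 8 hr. Counts such as 2 of 7 are near these shares. Of the 7 macrophage markers, 1 was called higher and 2 lower at 4 hr, and 3 higher and 2 lower at 8 hr, with *Adgre1*, which encodes F4/80, up by 1.38 at 8 hr (adjusted p = 2.41e-07). Of the 7 listed markers of resident peritoneal macrophages, 2 were higher and 2 lower at 4 hr, and 2 higher and 4 lower at 8 hr. *Gata6*, the transcription factor that defines these cells, had 6 to 66 reads per library and stood at -1.57 at 8 hr (adjusted p = 0.00462). The 2 that were higher at 8 hr were *Timd4* (1.45, adjusted p = 5.13e-05) and *Prg4* (0.93, adjusted p = 0.00623). *Siglecf*, an eosinophil marker, had 196 to 234 reads at 0 hr and 32 to 45 at 8 hr (-2.17, adjusted p = 5.48e-08). Of the 3 neutrophil markers tested, 2 were higher and 1 lower at 8 hr. *Camp* had 0 to 4 reads at 0 hr and 20 to 36 at 8 hr. *Mmp8*, with 3247 to 10407 reads, was lower (-0.79, adjusted p = 0.000524). The sum of the 3 went from 660 to 745 CPM at 0 hr to 514 to 575 CPM at 8 hr in WT. In S513A it went from 726 to 744 CPM to 362 to 439 CPM. Of the 4 dendritic cell markers tested, 2 were higher and 1 lower at 8 hr. The part of these markers in the LPS changes of the receptors was not tested.

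**Figure D1:**
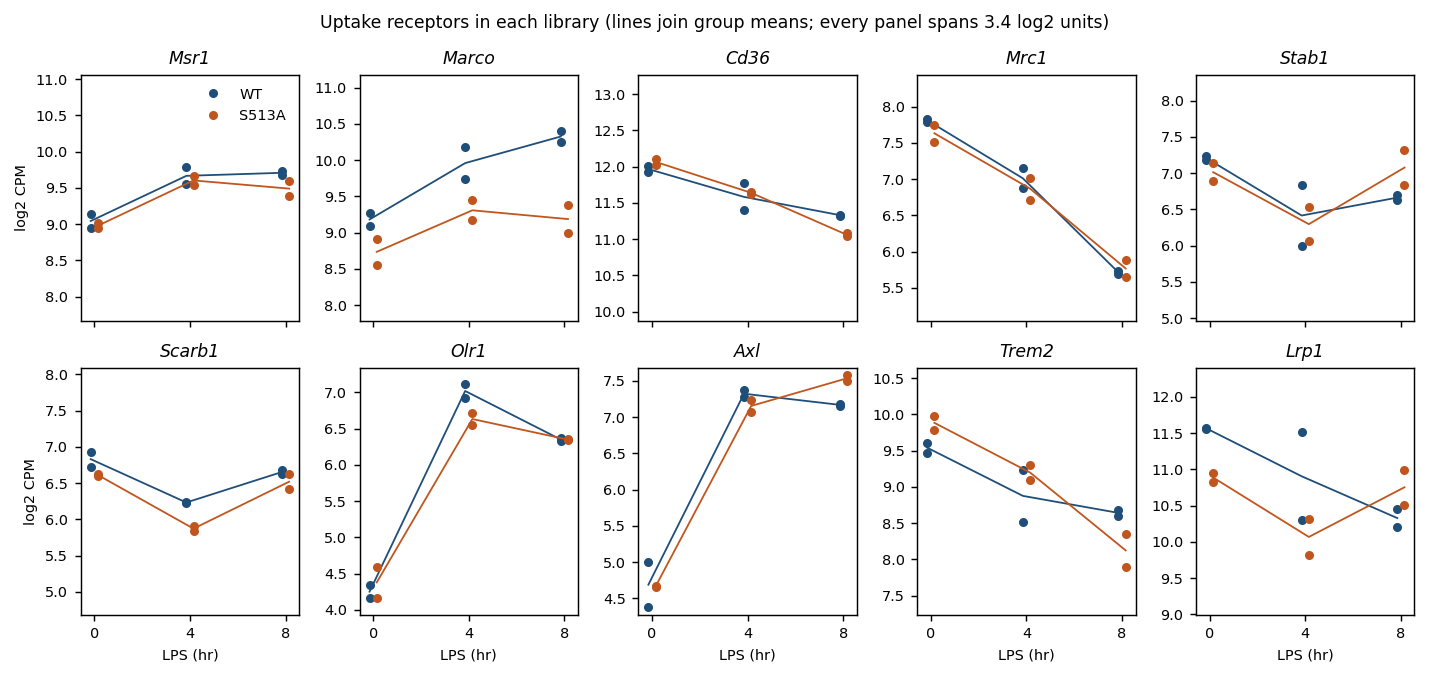
Log2 CPM of each receptor (y axis, log2 units, each panel spanning the same height) against hours of LPS (x axis) in the 12 libraries, with a point for each library, blue for WT and orange for S513A, and lines joining the means of the 2 libraries of a group. *Olr1* and *Axl* rose from 5.0 or less at 0 hr to 6.33 or more with LPS, *Mrc1* fell from 7.52 or more at 0 hr to 5.88 or less at 8 hr, and the S513A points of *Marco* lay below the WT points at all 3 times.

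*Olr1* and *Axl* had the largest rises. *Olr1*, on chromosome 6 at 129479150 to 129507350 (GRCm38), stood at a log2 CPM of 4.17 and 4.34 in the WT libraries and 4.16 and 4.60 in the S513A libraries at 0 hr. At 4 hr it stood at 6.93 and 7.11 in WT and 6.72 and 6.55 in S513A, and at 8 hr at 6.33 and 6.36 in WT and 6.36 and 6.34 in S513A. All LPS libraries lay above all 0 hr libraries, and the 8 hr libraries all lay below the 4 hr libraries. The rise was 5.70-fold at 4 hr (log2 fold change 2.51 ± 0.10 SE, adjusted p = 7.5e-09) and 4.10-fold at 8 hr (2.03 ± 0.10, adjusted p = 5.47e-08), and the change from 4 to 8 hr was -0.48 on the log2 scale (adjusted p = 0.00681).

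*Axl*, on chromosome 7 at 25756500 to 25788924, stood at a log2 CPM of 5.0 and 4.38 in WT and 4.65 and 4.67 in S513A at 0 hr. It reached 7.37 and 7.28 in WT and 7.23 and 7.08 in S513A at 4 hr, and 7.18 and 7.16 in WT and 7.57 and 7.50 in S513A at 8 hr. The LPS libraries did not overlap the 0 hr libraries, and the 4 and 8 hr libraries overlapped each other. The rise of *Axl* was 5.91-fold at 4 hr (2.56 ± 0.12, adjusted p = 1.78e-08) and 6.39-fold at 8 hr (2.68 ± 0.12, adjusted p = 1.75e-08).

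*Axl* was the TAM receptor called higher in the mean of both genotypes. *Mertk*, the TAM receptor most used by macrophages for apoptotic cells, was lower at 4 hr (log2 fold change -0.48, adjusted p = 0.000775) and had a value of -0.20 at 8 hr (adjusted p = 0.0823). That 8 hr value averages opposite directions. In WT the log2 CPM of *Mertk* went from 6.73 and 6.73 at 0 hr to 6.32 and 6.12 at 8 hr. In S513A it went from 6.44 and 6.43 to 6.55 and 6.54. No gene passed a test of such a difference between genotypes at 8 hr. *Tyro3* was not listed. Both TAM ligands fell, *Gas6* with a log2 fold change of -1.44 at 4 hr and -1.94 at 8 hr (adjusted p = 2.75e-07), and *Pros1* with -0.59 and -1.19 (adjusted p = 1.98e-07).

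The class A receptors rose less. *Msr1*, on chromosome 8 at 39543232 to 39642750, had a log2 CPM of 9.13 and 8.95 in WT and 8.95 and 9.01 in S513A at 0 hr. It stood at 9.78 and 9.55 in WT and 9.54 and 9.67 in S513A at 4 hr, and at 9.68 and 9.74 in WT and 9.39 and 9.59 in S513A at 8 hr. Every LPS library lay above every 0 hr library, and the rises were 1.54-fold at 4 hr (0.62 ± 0.09, adjusted p = 0.000133) and 1.5-fold at 8 hr (0.59 ± 0.09, adjusted p = 0.000271). *Marco*, on chromosome 1 at 120474538 to 120505024, rose 1.6-fold at 4 hr (0.68 ± 0.14, adjusted p = 0.00149) and 1.74-fold at 8 hr (0.80 ± 0.14, adjusted p = 0.000626). Its 0 hr and LPS libraries overlapped when the genotypes were pooled, and did not within either genotype. Under quantile normalization the 4 hr values were 0.22 for *Msr1* (adjusted p = 0.0639) and 0.26 for *Marco* (adjusted p = 0.109), so these 2 calls rest on the scaling between libraries. At 8 hr, *Msr1* had 0.31 under that scaling and kept its call (adjusted p = 0.0161).

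Among the receptors that fell, *Mrc1* and *Trem2* had the largest changes. *Mrc1*, on chromosome 2 at 14229414 to 14332023, had a log2 CPM of 7.79 and 7.83 in WT and 7.75 and 7.52 in S513A at 0 hr. At 4 hr it had 6.87 and 7.15 in WT and 7.02 and 6.72 in S513A, and at 8 hr 5.69 and 5.74 in WT and 5.88 and 5.65 in S513A. The 3 times did not overlap, in descending order from 0 to 8 hr. *Mrc1* was 1.72-fold lower at 4 hr (-0.78 ± 0.10, adjusted p = 7e-05) and 3.95-fold lower at 8 hr (-1.98 ± 0.10, adjusted p = 5.9e-08), and the step from 4 to 8 hr was -1.20 ± 0.10 (adjusted p = 2.63e-05).

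*Trem2*, on chromosome 17 at 48346401 to 48352276, had a log2 CPM of 9.47 and 9.61 in WT and 9.98 and 9.79 in S513A at 0 hr. It had 9.23 and 8.52 in WT and 9.10 and 9.30 in S513A at 4 hr, and 8.60 and 8.68 in WT and 7.90 and 8.35 in S513A at 8 hr. All LPS libraries lay below all 0 hr libraries, while 4 and 8 hr overlapped through the low WT library at 4 hr. The falls of *Trem2* were 1.6-fold at 4 hr (-0.68 ± 0.15, adjusted p = 0.00324) and 2.51-fold at 8 hr (-1.33 ± 0.15, adjusted p = 3.67e-05). Under quantile normalization the 4 hr value was -1.06.

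*Tyrobp*, the DAP12 adaptor through which Trem2 signals, had a log2 fold change of -0.28 at 4 hr (adjusted p = 0.264). After 8 hr it was called lower in the mean of both genotypes (-0.73, adjusted p = 0.0108). Only in S513A were its libraries apart, with a log2 CPM of 10.42 to 10.64 before LPS against 8.76 to 9.53 after 8 hr. Those of WT overlapped, spanning 9.76 to 10.21 before LPS against 9.86 to 9.94 after 8 hr. *Syk*, the kinase recruited by DAP12, rose by 1.66 at 4 hr and 1.42 at 8 hr (adjusted p = 1.51e-06). Of the other genes of the TREM locus, *Trem3* rose by 2.05 at 4 hr and 2.85 at 8 hr, and *Treml4* by 1.14 and 2.42, opposite in direction to *Trem2*. *Trem1* was called higher at 4 hr (adjusted p = 0.000358), with 0 to 3 reads in the 0 hr libraries, at or below the floor, and 19 to 41 reads at 4 hr, so that no exact fold is given. *Treml1*, with 8 to 18 reads at 0 hr and 2 to 8 at 4 hr, and *Treml2* (-0.51) were called lower at 4 hr and did not pass the test at 8 hr.

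*Cd36*, on chromosome 5 at 17781690 to 17888959, fell in steps. In log2 CPM the WT libraries held 11.93 and 12.0 and the S513A libraries 12.10 and 12.03 at 0 hr. At 4 hr WT had 11.77 and 11.40 and S513A had 11.62 and 11.66, and at 8 hr WT had 11.32 and 11.34 and S513A had 11.04 and 11.08, with no overlap between times. The fall of *Cd36* was 1.32-fold at 4 hr (-0.41 ± 0.10, adjusted p = 0.00534) and 1.77-fold at 8 hr (-0.82 ± 0.10, adjusted p = 5.76e-05). Under quantile normalization the 4 hr value was -0.84, and the step from 4 to 8 hr, which was -0.41 ± 0.10 (adjusted p = 0.012), was -0.195 and lost its call (adjusted p = 0.199). *Cd36* kept the highest level per kb of the 10 receptors at 8 hr, at 9.35 ± 0.16 (SD, n = 4).

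*Scarb1*, on chromosome 5 at 125277087 to 125341094, was lower at 4 hr and rose again by 8 hr. Its log2 CPM was 6.93 and 6.73 in WT and 6.59 and 6.63 in S513A at 0 hr, 6.22 and 6.24 in WT and 5.90 and 5.84 in S513A at 4 hr, and 6.68 and 6.62 in WT and 6.62 and 6.41 in S513A at 8 hr. The 4 hr libraries lay below all others, and those of 0 and 8 hr overlapped when the genotypes were pooled. They also overlapped within S513A, while in WT the 8 hr libraries lay below the 0 hr libraries. *Scarb1* was 1.59-fold lower at 4 hr (-0.67 ± 0.08, adjusted p = 2.82e-05), had a value of -0.14 ± 0.08 at 8 hr against 0 hr (adjusted p = 0.186, 95% interval -0.31 to 0.04), and rose by 0.53 ± 0.08 from 4 to 8 hr (adjusted p = 0.000679). Under quantile normalization the value of *Scarb1* at 8 hr against 0 hr was -0.32 and was called (adjusted p = 0.00925). *Pdzk1*, the scaffold protein that holds SR-BI at the membrane of hepatocytes, had the same course, with -0.53 at 4 hr (adjusted p = 0.00732) and 0.61 from 4 to 8 hr (adjusted p = 0.00886).

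*Stab1*, on chromosome 14 at 31139017 to 31168651, was 1.69-fold lower at 4 hr (-0.76 ± 0.18, adjusted p = 0.0045). At 0 hr its log2 CPM was 7.24 and 7.18 in the WT libraries and 7.14 and 6.88 in the S513A libraries. It was 5.99 and 6.83 in WT and 6.53 and 6.06 in S513A at 4 hr, and at 8 hr 6.69 and 6.63 in WT and 7.32 and 6.83 in S513A. The 4 hr libraries lay below the 0 hr libraries and overlapped those of 8 hr. At 8 hr against 0 hr *Stab1* had a value of -0.24 ± 0.18 (adjusted p = 0.311), and from 4 to 8 hr one of 0.51 ± 0.18 (adjusted p = 0.0614, unadjusted p = 0.017). The 8 hr value against 0 hr was called under quantile normalization (-0.48, adjusted p = 0.0451) and with a component shared within groups, described with the libraries' scores, as a term (-0.24, adjusted p = 0.00435). The exons of *Stab1* share 112 bases with those of *Nt5dc2* on the opposite strand, and without strand the reads there cannot be told apart.

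*Lrp1*, on chromosome 10 at 127538157 to 127621148, had the widest spread between libraries of a group. Its log2 CPM was 11.56 and 11.57 in WT and 10.95 and 10.82 in S513A at 0 hr, 10.30 and 11.51 in WT and 10.31 and 9.82 in S513A at 4 hr, and 10.45 and 10.20 in WT and 10.99 and 10.51 in S513A at 8 hr. The times overlapped. *Lrp1* was lower at 4 hr (-0.74 ± 0.23, adjusted p = 0.0184) and at 8 hr (-0.69 ± 0.23, adjusted p = 0.0317) than at 0 hr. The 8 hr value averages -1.24 in WT (adjusted p = 0.0137) and -0.13 in S513A (adjusted p = 0.772). The difference between genotypes was not called (adjusted p = 0.231). The call at 4 hr was lost without S513A 0 hr replicate 1 (adjusted p = 0.0569) or S513A 4 hr replicate 2 (adjusted p = 0.07). Without WT 4 hr replicate 1 the 4 hr value was -0.44, and under quantile normalization it was -1.16, both called. The call at 8 hr was lost in 7 of the 12 fits that left out a library, those without either WT library at 0 or 8 hr, either S513A library at 0 hr, or S513A 8 hr replicate 2, with adjusted p of 0.0547 to 0.102.

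**Figure D2:**
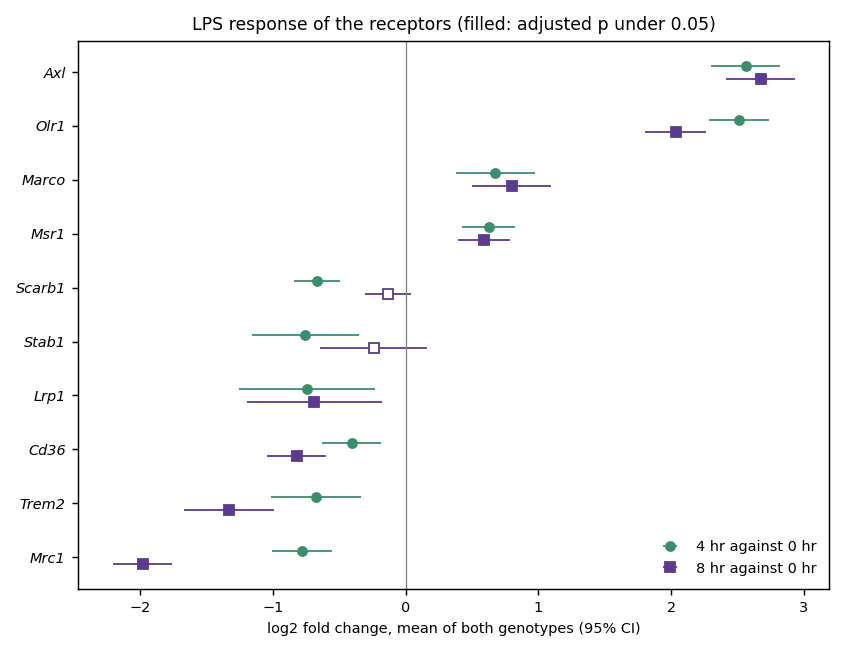
Log2 fold change after LPS, as the mean of both genotypes (x axis, log2 units), for each receptor (y axis), with circles for 4 hr and squares for 8 hr against 0 hr, 95% confidence intervals from limma as bars, and filled symbols for an adjusted p under 0.05. *Axl* and *Olr1* lay between 2.03 and 2.68, *Mrc1* reached -1.98, and *Scarb1* and *Stab1* were called at 4 hr and not at 8 hr, where both were called under quantile normalization.

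The receptors thus took several courses, which the likeness of their log2 CPM over the 12 libraries describes. *Olr1* and *Axl* had a Pearson r of 0.96 with each other and *Cd36* and *Trem2* one of 0.98, while *Cd36* and *Axl* had one of -0.85. These libraries share the LPS time course, so such values are descriptive. Among all genes tested, the 3 most like each receptor were *Orai2*, *Slc7a2* and *Zc3h12c* for *Olr1* (r of 0.993 or more), *Ppfibp2*, *Rasgrp1* and *Bop1* for *Axl* (0.995 or more), *Mamdc2*, *Reps2* and *Atp2a3* for *Mrc1* (0.989 or more), *Gamt*, *Syngr1* and *Tnfsf13* for *Cd36* (0.989 or more), and *Fabp5*, *Calm2* and *Pecr* for *Trem2* (0.986 or more). The 3 most like *Msr1* were *Ifitm2*, *Upp1* and *Ctsc* (0.98 or more), those most like *Stab1* were *Idua*, *Prkacb* and *Slc44a2* (0.971 or more), and those most like *Lrp1* were *Cic*, *Tsc1* and *Slc12a7* (0.978 or more). *Scarb1* was most like *Fads1* (0.983), *Dhcr7* (0.962) and *Coasy* (0.96), of which *Fads1* encodes a fatty acid desaturase and *Dhcr7* an enzyme of cholesterol synthesis. *Marco* was most like *B3gnt9* (0.921), *Timd4* (0.908) and *Rps4l* (0.905), the lowest values of the 10.

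The related genes give the surroundings of these receptors. Of 11 other scavenger receptors tested, 3 were higher and 5 lower at 4 hr, and 4 were higher and 5 lower at 8 hr. With 29.1% of all genes called higher and 26.7% lower at 4 hr, and 24.5% and 21.6% at 8 hr, counts such as 3 of 11 are near the background. The largest rises at both times included *Scarf1*, a class F receptor (1.63 at 4 hr and 2.12 at 8 hr), and *Cxcl16*, a transmembrane chemokine that also binds oxidised lipoproteins (1.57 and 1.90), while *Stab2*, the relative of *Stab1*, was called lower at both times, with 7 to 18 reads at 0 hr and 0 to 3 reads, at or below the floor, in the LPS libraries, so that no exact fold is given. Of 8 relatives of *Lrp1* tested, 2 were higher and 6 lower at 4 hr, with *Lrp11* at 1.39 and *Lrp12* at -0.85, and 3 were higher and 5 lower at 8 hr.

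Receptors and bridging molecules for apoptotic cells included many that were lower with LPS. Of the 19 tested, 13 were lower and 4 higher at 4 hr, with a median of -0.58. At 8 hr 13 were lower and 3 higher, with a median of -1.19. Over all genes tested the medians were 0.02 and -0.00070 at the same times. Of all genes tested, 26.7% were lower and 29.1% higher at 4 hr, and 21.6% and 24.5% at 8 hr. *Havcr2*, the phosphatidylserine receptor Tim-3, fell to -3.28 at 4 hr and -2.90 at 8 hr in log2 fold change, *Itgb3*, which forms the vitronectin receptor with *Itgav*, to -2.48 and -2.58, and *Cd300a* to -2.37 and -1.76. The C1q genes, whose product tags dying cells, fell as well, with -1.22 (*C1qa*), -1.64 (*C1qb*) and -1.64 (*C1qc*) at 8 hr. The genes that rose at both times were *Cd14*, also the LPS co-receptor (3.75 at 4 hr and 2.92 at 8 hr), *Thbs1* (1.20 and 1.20) and *Timd4*, the phosphatidylserine receptor Tim-4 (1.04 and 1.45). Of 15 adaptors, chaperones and engulfment signalling genes, 6 were higher and 4 lower at 4 hr, and 7 were higher and 4 lower at 8 hr. Beside the shares of all genes given above, the 4 lower are near the background. The 15 included *Elmo2*, which acts with Dock proteins to activate Rac (-0.79 at 4 hr). They also included the cholesterol exporter *Abca1* (0.75 at 4 hr and 0.94 at 8 hr). Of the sheddases that release some of these receptors from the surface, *Adam17* rose (0.81 at 4 hr and 0.98 at 8 hr) and *Adam10* fell (-0.44 and -0.30).

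**Figure D3:**
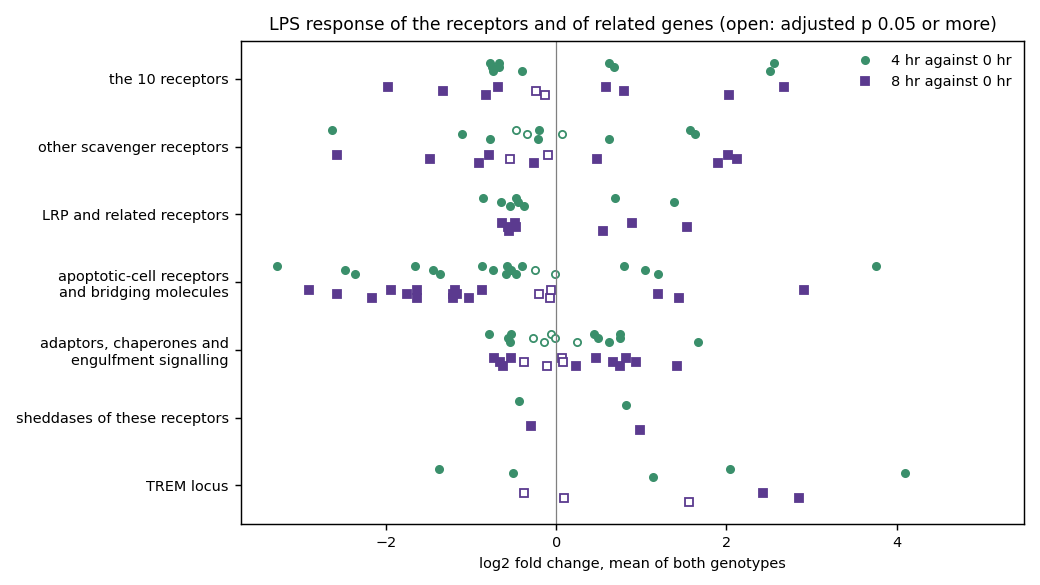
Log2 fold change after LPS, as the mean of both genotypes (x axis, log2 units), with a point for each gene of the lists named on the y axis, circles for 4 hr and squares for 8 hr against 0 hr, and filled symbols for an adjusted p under 0.05. Of the 19 apoptotic-cell receptors and bridging molecules, 13 lay to the left and were filled at each time, and the points of *Trem1* and *Stab2* rest on 0 to 3 reads per library in a group and give no exact fold.

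Between genotypes, no receptor passed the test. By limma, 0 of 10 were called at 0 hr (0.0337% of all genes called), 0 after 4 hr of LPS (0.0168%), 0 after 8 hr (0.0337%) and 0 in the average over the 3 times (0.0673%). At an unadjusted p under 0.05 the receptors were 1 at 0 hr (*Marco*) and 4 at 4 hr (*Marco*, *Scarb1*, *Olr1* and *Lrp1*). There were 2 at 8 hr (*Marco* and *Trem2*) and 2 in the mean (*Marco* and *Scarb1*). Of all 11885 genes tested, 949, 833, 1487 and 798 had such a p in these comparisons. Voom on the recovered reads called 0, 0, 0 and 1 of the receptors. The mean S513A minus WT log2 difference over the 3 times was 0.03 for *Stab1* (95% interval -0.295 to 0.36), -0.04 for *Cd36* (-0.22 to 0.14), 0.05 for *Trem2* (-0.23 to 0.33) and 0.06 for *Axl* (-0.15 to 0.27). It was -0.09 for *Olr1* (-0.27 to 0.10), -0.09 for *Mrc1* (-0.27 to 0.10), -0.12 for *Msr1* (-0.28 to 0.04) and -0.36 for *Lrp1* (-0.78 to 0.05). These intervals hold 0, and that of *Lrp1* was the widest of these 8.

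*Marco* was the nearest to a call. Its log2 CPM was 9.09 and 9.27 in WT against 8.56 and 8.91 in S513A at 0 hr, 10.18 and 9.74 against 9.17 and 9.44 at 4 hr, and 10.40 and 10.25 against 9.00 and 9.38 at 8 hr. At each time both S513A libraries lay below both WT libraries. The S513A minus WT difference was -0.45 ± 0.19 at 0 hr (adjusted p = 0.586), -0.65 ± 0.19 at 4 hr (adjusted p = 0.622) and -1.14 ± 0.19 at 8 hr (adjusted p = 0.272). Averaged over time it was -0.75 ± 0.11, 1.68-fold lower, with an unadjusted p of 3.93e-05 and an adjusted p of 0.0519. Over the 22 alternatives to the mean comparison, the difference stayed between -0.82 and -0.67 and the adjusted p ran from 8.73e-06 to 0.341, and it passed the threshold in 7. With a replicate block within genotype the adjusted p was 0.0144. Another of these 7 left out WT 4 hr replicate 2 (-0.82, adjusted p = 0.0321).

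Some related genes had differences of the same sign as *Marco* between genotypes, none of them called. *Timd4* and the C1q genes are named for that sign, out of 19 apoptotic-cell receptors and bridging molecules tested. The median difference of those 19 was -0.11 averaged over time. *Timd4*, which also rose with LPS, had a mean S513A minus WT difference of -0.65 ± 0.14 (adjusted p = 0.285), and *C1qa*, *C1qb* and *C1qc* had -0.47, -0.44 and -0.44 (adjusted p = 0.291, 0.356 and 0.25). With LPS the C1q genes fell where *Marco* rose. *Timd4* is also 1 of 8 markers of resident peritoneal macrophages, of which 7 were listed (not *Lyve1*) and 0 were called between genotypes. The median S513A minus WT difference of these 7 was -0.41 averaged over time, and -0.40, -0.46 and -0.47 at the successive times. Their summed level was 129 to 160 CPM in WT and 93.3 to 122 CPM in S513A at 0 hr, 148 to 259 and 113 to 139 CPM at 4 hr, and 151 to 189 and 148 to 160 CPM at 8 hr, and the defining marker *Gata6* had 6 to 66 reads per library. Their part in the difference of *Marco* was not tested.

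*Scarb1* was the other receptor lower in S513A in both libraries at every time, at 8 hr by a gap that 2 decimals do not show, with a mean difference of -0.24 ± 0.06 (unadjusted p = 0.00343, adjusted p = 0.418). The share of all genes with such an order of libraries at every time was not counted, which limits this reading for *Marco* as well. At 4 hr *Olr1* had a value of -0.39 ± 0.15 and *Lrp1* one of -0.84 ± 0.33 (adjusted p = 0.622 for both). *Trem2* had a value of -0.52 ± 0.22 at 8 hr (adjusted p = 0.395).

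**Figure D4:**
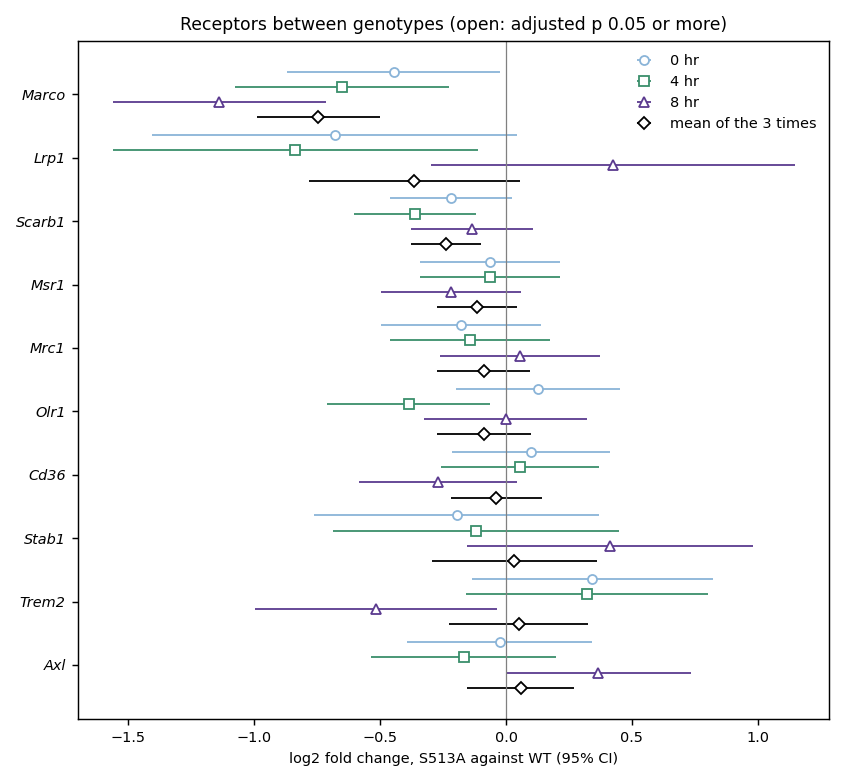
Log2 fold change of S513A against WT (x axis, log2 units) for each receptor (y axis) at each time and averaged over the 3 times, with 95% confidence intervals from limma as bars and open symbols for an adjusted p of 0.05 or more. All symbols are open, and the 4 intervals of *Marco* lie below 0, with the mean at -0.75.

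Whether the LPS response differed between genotypes was tested as an interaction. No receptor was called at 4 hr or at 8 hr by limma, where 0% of all genes were called, nor by voom. At an unadjusted p under 0.05 there were 1 receptor at 4 hr (*Olr1*) and 3 at 8 hr (*Marco*, *Trem2* and *Lrp1*). Of all 11885 genes tested, 144 had such a p at 4 hr and 2405 at 8 hr. *Olr1* rose by 2.77 in WT and 2.25 in S513A at 4 hr, a difference of -0.51 ± 0.21. At 8 hr *Marco* had an LPS change of 1.14 in WT and 0.45 in S513A, a difference of -0.69 ± 0.27 (adjusted p = 0.215). *Trem2* changed by -0.90 in WT and -1.76 in S513A, a difference of -0.86 ± 0.31 (adjusted p = 0.2). *Lrp1* had -1.24 in WT and -0.13 in S513A, a difference of 1.11 ± 0.46 (adjusted p = 0.231). Over the 23 alternatives to this comparison, the difference ran from -0.88 to -0.30 for *Marco* and from -1.09 to -0.39 for *Trem2*. For *Lrp1* it ran from 0.34 to 1.35, and no alternative called any of these 3.

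Several receptors moved with a component that separates libraries of the same group. The first principal component of the within-group residuals held 39.2% of the variance between replicates, and its gene loadings had a Pearson r of 0.47 with log2 exon length over 11275 genes. The score of a library on it was 14.3 and 9.06 in WT and -8.05 and -15.3 in S513A at 0 hr, -12.2 and 31.4 in WT and 10 and -29.2 in S513A at 4 hr, and -6.03 and -14.3 in WT and 31.8 and -11.5 in S513A at 8 hr. WT thus scored above S513A at 0 hr, and at 8 hr S513A replicate 1 scored far above the others. Over the 12 libraries, centred at each time, the log2 CPM of *Stab1* had a Pearson r of 0.94 with the score, that of *Lrp1* 0.91, that of *Mrc1* 0.91, that of *Trem2* -0.89 and that of *Cd36* -0.72. The loading of *Lrp1* lay at the 97.7 percentile of all genes, that of *Stab1* at the 96 percentile and that of *Trem2* at the 11.3 percentile. *Marco* had an r of -0.26, over libraries that also differ by genotype, and its loading lay at the 15.3 percentile, near that of *Trem2*. These libraries also defined the score, so the values are descriptive. The part of the component in the differences of *Lrp1*, *Stab1*, *Trem2*, *Cd36* and *Marco* was not tested separately from genotype.

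**Figure D5:**
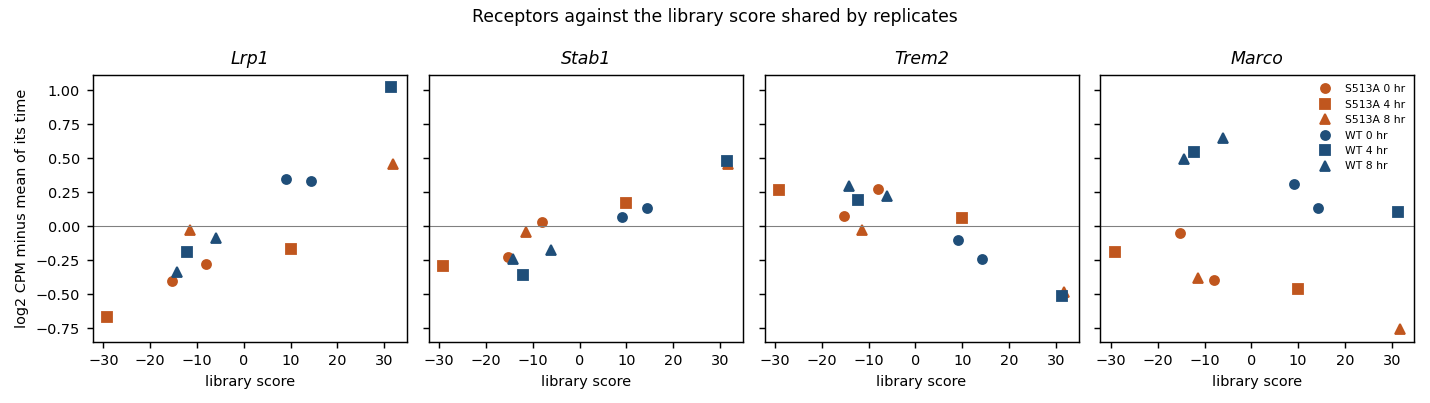
Log2 CPM minus the mean of the 4 libraries of its time (y axis, log2 units) against the library score on the component shared within groups (x axis, arbitrary units) for *Lrp1*, *Stab1*, *Trem2* and *Marco*, with blue for WT, orange for S513A, and circles, squares and triangles for 0, 4 and 8 hr. *Lrp1* and *Stab1* rise with the score and *Trem2* falls with it, while WT lies above S513A for *Marco* at low and high scores alike. Within each genotype *Marco* is lowest at the highest score of that genotype.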

How the data were processed

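The authors aligned the paired-end reads with HISAT2 to mm10, as unstranded, and counted them with featureCounts 1.6.3. The annotation, the strand setting of the counting and the program that normalized the counts are not given in the sources used here. The deposited values are log2 CPM, in which 0.5 read was added to each count before division by an effective library size, and whole reads were recovered from them with a largest departure of 0.00156 read. The log2 values were compared with limma 3.58.1 in R 4.3.3 (a mean for each of the 6 groups, empirical Bayes prior with a trend, two-sided) over the 11885 genes that reached 1 CPM in 2 or more libraries. LPS contrasts were averaged over genotypes, p values were corrected after Benjamini and Hochberg across the genes tested, with a threshold of 0.05. The receptors, the lists of related and marker genes and the alternatives were chosen with earlier results of these data known. Every receptor was named, with its value in every library where it passed the LPS test or had an unadjusted p under 0.05 between genotypes, and of the related genes those with the largest changes or a role beside a receptor. The labels do not say whether the 0, 4 and 8 hr libraries of a number share a mouse. Deviations from the group means of libraries with the same number had r from -0.41 to 0.42 over 15 pairs of groups, and from -0.10 to 0.42 over the 6 pairs within a genotype, not above 0.1 in every pair, so no pairing was used, and a block within genotype was an alternative. Exon lengths came from GENCODE M21 (93.1% of genes matched), positions and promoters from RefSeq, and 3 reads served as the floor, which covers counting error only. Some related genes are not reported here. The model was tested on simulated data. The noise there was drawn separately for each gene and library, without the component shared within groups, so the model was not tested under that component. Plots were drawn with Python 3.11.15, pandas 2.3.3 and matplotlib 3.10.9.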

Additional observations from a re-analysis of the deposited data

Results flagged for a closer look

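Some receptors pointed in opposite directions in all libraries of the groups compared. The share of all genes that did so was not counted, so these patterns are descriptive. In the interaction at 8 hr, 2405 of all 11885 genes tested had an unadjusted p under 0.05. *Trem2* and *Cd36* were higher in both S513A than in both WT libraries at 0 hr and lower at 8 hr, with a genotype by LPS interaction at 8 hr of -0.86 ± 0.31 (unadjusted p = 0.0178, adjusted p = 0.2) and -0.37 ± 0.20 (unadjusted p = 0.0932, adjusted p = 0.299). *Lrp1* and *Stab1* were lower in S513A at 0 hr and higher at 8 hr, with an interaction of 1.11 ± 0.46 (unadjusted p = 0.0368, adjusted p = 0.231) and 0.61 ± 0.36 (unadjusted p = 0.122, adjusted p = 0.33). All 4 receptors moved with the component shared within groups, on which WT scored above S513A at 0 hr and a single S513A library scored highest at 8 hr. *Axl* fell from 4 to 8 hr in both WT libraries and rose in both S513A libraries, a difference between genotypes of 0.53 ± 0.23 (unadjusted p = 0.0448, adjusted p = 0.261). Whether that component has a part in these differences was not tested. None of them passed the limma test over all genes. With 2 libraries in each group, no group was large enough to look for a single library far from the others.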

How the results depend on the processing

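Of the counts of receptors called, 118 of 131 values under the alternatives and 140 of 144 with a library left out stayed within 1.5 times the reported count, and no fold change that passed the test reversed. Under quantile normalization 2 receptors were higher at 4 hr, against 4. Between 4 and 8 hr, 2 receptors in place of 1 were higher under quantile normalization, with a replicate block within genotype and with the within-group component as a term, and 1 to 2 with a library left out, the added gene being *Stab1* (0.51, adjusted p = 0.0293 with the block, and 0.72, adjusted p = 0.00479, without WT 4 hr replicate 2). Between genotypes, where 0 were reported, 1 receptor was called at 0 hr in a model of only the libraries compared (*Lrp1*, -0.68, adjusted p = 0.0403, with 693 genes called in all, against 4), and 1 at 4 hr and 1 at 8 hr with the component as a term (*Marco*, -0.82 and -0.96). In the mean of the 3 times, 1 receptor, *Marco*, was called with a further pseudocount of 1 CPM (adjusted p = 0.0479), quantile normalization (0.0283), median-ratio scaling (0.049), a replicate block within genotype (0.0144), the component as a term (8.73e-06, with 89 genes called in all, against 8) and voom (0.0498), and 0 to 1 with a library left out. The component was scored on the same libraries, so the p values with it may be too small. A replicate block common to all groups, with 0 receptors called between genotypes, changed no receptor's call, and same-numbered libraries were not shown to be paired. The component raised the calls from 4 to 8 hr to 2412 higher and 2694 lower genes, against 1522 and 1521, and 651 genes passed the interaction at 8 hr without S513A 8 hr replicate 2, against 0. The *Lrp1* call at 8 hr was lost without a trend in the prior (adjusted p = 0.0579). A pair of values that passed no test turned, *Msr1* from 4 to 8 hr (-0.04) to 0.09 under quantile normalization and to between -0.094 and 0.022 with a library left out, and *Lrp1* (0.05) to between -0.25 and 0.36. The cause of these changes was not tested. Depth limits the related genes with 0 to 3 reads in a group.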
